A study of Drosophila melanogaster with 3 samples.

Results

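The genes described here were the 54 translation factor genes of Drosophila melanogaster whose symbols begin with eIF (initiation factors), eEF (elongation factors) or eRF (release factors), out of 13945 protein-coding genes in the Ensembl annotation of 6 chromosomes. The rule that picks the genes reads their symbols alone. The measurement was ChIP-seq of the protein CG10669, in which DNA fragments attached to a protein are recovered with an antibody and sequenced. There was a single group of 3 biological replicates, each of whole prepupae (the stage at the onset of metamorphosis) with the sexes pooled, from the strain CG10669-GFP, a transgenic line with GFP fused to the C-terminus of CG10669, and no other condition or untagged line was compared. The labels name CG10669 as the antibody target and call the samples input controls, although the files are peak lists of an immunoprecipitation, and whether the untagged protein was also recovered was not tested. In whole animals, a site held in more cells and a site held more strongly in each cell cannot be told apart.

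Translation initiation factors bring the small ribosomal subunit, the initiator tRNA and the mRNA cap together, move the complex to the start codon and then let the large subunit join. Elongation factors deliver aminoacyl-tRNAs and move the ribosome along the mRNA, and release factors end the chain at a stop codon. Many genes for ribosomal proteins and other parts of the translation machinery in flies start transcription at a pyrimidine-rich element, the TCT initiator, in place of the usual initiator.

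The summit windows of 6 translation factor genes are printed because they show how unlike the DNA under these peaks was. They were also picked for holding little transcribed untranslated sequence, which was 30 bases at eEF1gamma and none at the others. Each is 120 bases of the RefSeq Release 6 genome (dm6) around the reproducible summit, read 5′ to 3′ on the strand of the gene. Capitals mark ATCGAT (the core of the DNA replication-related element, DRE), TATAAA or its reverse complement, and runs of 6 or more A. The windows are chr3R:24109134-24109253 (minus strand) for eIF4EHP, chr3R:29220082-29220201 (plus strand) for eEF1gamma, chr2L:5052420-5052539 (minus strand) for eIF3h, chr2L:12434269-12434388 (plus strand) for eRF3, chr3L:20348151-20348270 (plus strand) for eRF1 and chr3L:3223174-3223293 (plus strand) for eIF1.
eIF4EHP: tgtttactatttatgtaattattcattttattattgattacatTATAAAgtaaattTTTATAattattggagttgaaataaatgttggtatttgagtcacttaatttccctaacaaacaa
eEF1gamma: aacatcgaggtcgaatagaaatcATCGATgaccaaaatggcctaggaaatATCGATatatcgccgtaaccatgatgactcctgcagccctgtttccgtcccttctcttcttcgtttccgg
eIF3h: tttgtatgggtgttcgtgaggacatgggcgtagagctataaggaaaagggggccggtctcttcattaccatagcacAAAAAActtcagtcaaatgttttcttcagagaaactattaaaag
eRF3: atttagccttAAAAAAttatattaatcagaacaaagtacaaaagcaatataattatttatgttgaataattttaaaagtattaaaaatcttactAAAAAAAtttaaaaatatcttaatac
eRF1: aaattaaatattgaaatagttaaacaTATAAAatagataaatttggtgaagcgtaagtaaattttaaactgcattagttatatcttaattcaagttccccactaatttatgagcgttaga
eIF1: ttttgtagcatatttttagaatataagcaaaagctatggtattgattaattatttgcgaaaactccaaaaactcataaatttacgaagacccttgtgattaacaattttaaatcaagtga
The windows of eIF4EHP, eRF3, eRF1 and eIF1 are mostly A and T, with 19.2%, 14.2%, 23.3% and 25.8% G or C. Those of eEF1gamma and eIF3h held 46.7% and 40.8%, and eEF1gamma alone among the 6 carries ATCGAT, at 2 places.

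A second set shows annotated starts with the letters CTTT, the core of the TCT initiator, in capitals, each 50 bases on the strand of the gene. eIF4A has a reproducible promoter peak, 676 bp from the start printed here, and eIF3i, eIF3e, eIF4E1, eIF3f1, eIF3d1 and eEF1alpha2 have none, so no printed start is itself within 500 bp of a reproducible summit. The windows are chr2L:5981734-5981783 (plus strand) for eIF4A, chr2L:4967756-4967805 (minus strand) for eIF3i, chr3L:16786922-16786971 (minus strand) for eIF3e, chr3L:9402441-9402490 (minus strand) for eIF4E1, chr3R:4714163-4714212 (minus strand) for eIF3f1, chr3R:23680009-23680058 (plus strand) for eIF3d1 and chr3R:31739630-31739679 (plus strand) for eEF1alpha2.
eIF4A: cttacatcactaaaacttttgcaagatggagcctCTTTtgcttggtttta
eIF3i: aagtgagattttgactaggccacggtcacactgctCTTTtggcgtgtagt
eIF3e: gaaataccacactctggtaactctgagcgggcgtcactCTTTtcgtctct
eIF4E1: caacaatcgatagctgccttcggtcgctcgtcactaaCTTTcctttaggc
eIF3f1: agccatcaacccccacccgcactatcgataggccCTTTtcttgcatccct
eIF3d1: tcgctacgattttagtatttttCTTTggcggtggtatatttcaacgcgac
eEF1alpha2: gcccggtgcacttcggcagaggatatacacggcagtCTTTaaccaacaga
CTTT is followed by a further pyrimidine at eIF4A, eIF3i, eIF3e, eIF4E1 and eIF3f1, and by a purine at eIF3d1 and eEF1alpha2.

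Each deposited list gives peaks with a summit position and a signal, which is the peak caller's own value. Each replicate had 30000 candidate peaks, the pooled data had 30000 more, and the reproducible list held 7248. The signal scale differed between lists, so a signal is given below as a relative value, divided by the median signal of all candidates of the same list. The 7248 strongest candidates of a replicate are called its list, and these ended at relative values of 2.07, 1.85 and 2.09 in replicates 1, 2 and 3. Read depth is unknown, and all 3 replicates shared 1 control file.

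A gene is called bound where it has an annotated transcription start site (TSS) no farther than 500 bp from a reproducible summit. By this definition 13 of the 54 translation factor genes (24.1%) were bound, against 2145 of 13945 protein-coding genes (15.4%). The bound genes were eIF1, eIF3h, eIF4A, eIF4EHP, eIF4G2, eIF5B and eIF6 for initiation, eEF1alpha1, eEF1gamma, eEF2 and eEF5 for elongation, and eRF1 and eRF3 for termination. Summits of the replicate lists lay at 10, 12 and 11 translation factor genes in replicates 1, 2 and 3 (18.5%, 22.2% and 20.4%), where the shares of all protein-coding genes were 15.2%, 18% and 16.9%. The mean was 20.4% ± 1.85 for translation factor genes and 16.7% ± 1.42 for all protein-coding genes (SD, n = 3 replicate lists). The translation factor share was thus above the share of all genes in each replicate, and with peaks required in all 3 replicate lists the order turned, with 5 of 54 translation factor genes (9.26%) against 10.4% of all protein-coding genes. With any 1 replicate left out and summits required in both other replicate lists, 6 translation factor genes (11.1%) counted as bound in each case, against 11.2% to 12% of all protein-coding genes, so the order turned here too. No test was run on the list, whose genes are not replicates of a condition.

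**Figure D1:**
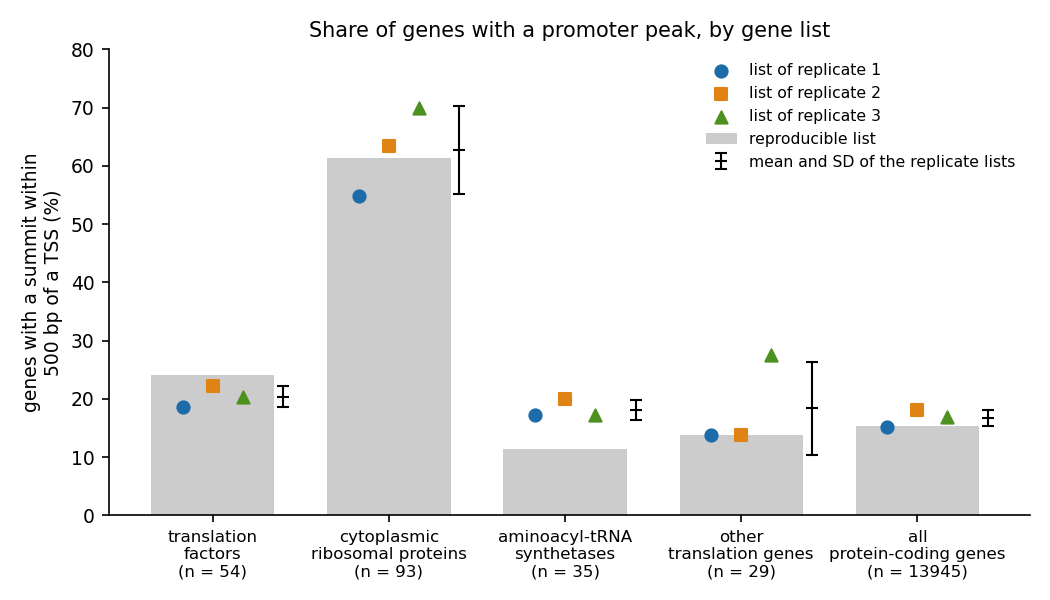
Percent of genes with a summit within 500 bp of a TSS (vertical axis) for translation factor genes, 3 other translation gene lists and all protein-coding genes. Bars show the reproducible list, coloured points the list of each replicate, and the black mark with its error bar the mean and SD of the 3 replicate lists. Translation factor genes stood at 24.1% in the reproducible list, ribosomal protein genes at 61.3% and all protein-coding genes at 15.4%.

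Other genes of the translation machinery differed widely in this share. Cytoplasmic ribosomal protein genes, the proteins of the ribosome itself, were bound in 57 of 93 cases (61.3%, chosen by symbol with paralogs included), and in 62.7% ± 7.55 over the replicate lists (SD, n = 3). Genes for aminoacyl-tRNA synthetases, which charge tRNAs, were bound in 4 of 35 cases (11.4%), with 18.1% ± 1.65 over the replicate lists. Of 29 further translation genes outside the symbol rule, 4 (13.8%) were bound, with 18.4% ± 7.96 over the replicate lists, and these were pAbp (poly(A)-binding protein), larp (an RNA-binding protein), HBS1 (a ribosome rescue factor) and mIF2 (a mitochondrial initiation factor). In the reproducible list the translation factor genes therefore lay between the other lists, and they were far below the ribosomal protein genes in every list. Their place above the 2 smaller lists was not stable. In the list of replicate 3 the further translation genes stood at 27.6%, above translation factor genes at 20.4%.

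A looser cut left few translation factor genes with a pooled candidate and no reproducible peak. In single replicates, 18 of the 41 unbound translation factor genes had a candidate within 500 bp of a TSS. This count was not set beside that of all unbound genes. With all candidates of a replicate, bound or not, the mean share was 38.3% of translation factor genes and 35.5% of all protein-coding genes. Pooled candidates of any strength lay within 500 bp of a TSS at 15 of 54 translation factor genes (27.8%), against 30.5% of all protein-coding genes. Of genes with such a candidate, 13 of 15 translation factor genes (86.7%) were in the reproducible list, against 2145 of 4254 protein-coding genes (50.4%). The 2 genes with a candidate only were eIF2beta, a subunit of the factor that carries initiator tRNA, at a relative value of 1.92, and eIF4B, a helper of the eIF4A helicase, at 0.536.

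The counts by role are small and are given beside the 15.4% of all protein-coding genes that were bound. Of the 16 genes for eIF3, the large scaffold on the small ribosomal subunit, 1 (eIF3h) was bound. None of the 5 eIF2 genes and none of the 5 eIF2B genes, which encode the exchange factor that recharges eIF2 with GTP, was bound. Of the 13 eIF4 genes for cap binding and mRNA unwinding, 3 were bound, and of the 3 genes for scanning and start codon choice (eIF1, eIF1A and eIF5), 1. Both genes for subunit joining and large subunit release (eIF5B and eIF6), both for translocation and stall relief (eEF2 and eEF5) and both release factor genes were bound. Of 5 eEF1 genes, which serve aminoacyl-tRNA delivery, 2 were bound, and eEFSec, the selenocysteine elongation factor, was not. By chromosome, bound genes were 4 of 6 on 2L, 3 of 13 on 2R, 3 of 12 on 3L, 3 of 15 on 3R, 0 of 1 on 4 and 0 of 7 on X. The shares of all protein-coding genes bound were 15.1% on 2L, 12.9% on 2R, 16.5% on 3L, 15.3% on 3R, 11.2% on 4 and 17.9% on X.

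Among the initiation factor genes the strongest peak was at eIF4EHP, a cap-binding protein that represses translation of chosen mRNAs in fly embryos. Its summit on 3R at 24109194 ranked 36 of 7248 and had relative values of 51.9, 28.1 and 24.4 in replicates 1, 2 and 3, a mean of 34.8 ± 14.9 (SD, n = 3), with ranks 17, 46 and 115. All 3 replicates were high, with replicate 1 above the other two. The summit lay 234 bp upstream of the TSS of eIF4EHP and only 142 bp from that of its neighbour CG18428, and in every replicate the summit was likewise nearer to CG18428.

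The second strongest was at eIF6, whose protein keeps the large ribosomal subunit from joining too early. Its summit on 2R at 23850399 ranked 95, with relative values of 17.3, 25.4 and 32.7 in replicates 1, 2 and 3, a mean of 25.1 ± 7.70 (SD, n = 3), and ranks of 401, 64 and 47. The order of the replicates was the opposite of that at eIF4EHP, with replicate 1 lowest. The summit lay 98 bp upstream of eIF6 and inside the gene ytr.

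eIF3h, a subunit of the eIF3 scaffold, had a peak in its intron, 300 bp downstream of the TSS, at 5052480 on 2L with rank 1504. Its relative values were 5.26, 6.50 and 8.67 in replicates 1, 2 and 3, a mean of 6.81 ± 1.72 (SD, n = 3). A second, weaker summit at 26 bp downstream, in the 5′ UTR, ranked 6009 and had 2.10, 2.00 and 1.74. Both peaks lay also within 500 bp of senju, a neighbouring gene, whose TSS was 363 bp from the stronger summit and 89 bp from the weaker one. Every replicate thus had the intronic peak well inside its list, while the weaker one was near the end of the lists of replicates 1 and 2 and outside that of replicate 3.

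eIF5B, the GTPase that joins the ribosomal subunits, had a promoter summit at 3460740 on 3L with rank 2907. Relative values were 4.45, 3.85 and 4.37 in replicates 1, 2 and 3, a mean of 4.22 ± 0.329 (SD, n = 3). The 3 replicates differed little here, and their ranks were 3231, 2964 and 3051. The summit lay 137 bp upstream of the nearest TSS and inside the 5′ UTR of another transcript of the gene.

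The remaining initiation factor peaks were weak or uneven between replicates. eIF4A, the helicase that unwinds the mRNA leader, had a summit 77 bp downstream of its TSS at 5982440 on 2L with rank 6989, and relative values of 1.88, 2.99 and 1.79. Replicate 2 alone was inside its list at that summit, while replicate 1 had a stronger candidate at 4.37, 66 bp upstream of a TSS of the gene. eIF4G2, a relative of the scaffold eIF4G needed in the male germline, had a summit 205 bp downstream of its TSS at 23819032 on 3R with rank 6647, no candidate in replicate 1 and 1.68 and 1.65 in replicates 2 and 3. It was in no replicate list, and CG33111, a gene it overlaps, has a TSS at the same distance of 205 bp.

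eIF1, which guards the choice of start codon, had a reproducible summit 107 bp upstream at 3223234 on 3L with rank 5011. Replicate 1 had no candidate within 200 bp, and its nearest was 17868 bp away. Replicate 2 had 5.61 and replicate 3 had 0.961 at the candidates matched to this summit, so a high and a low value stood side by side. The strongest candidates within 500 bp of the eIF1 TSS were 5.61 in replicate 2 and 6.45 in replicate 3, and they lay 90 and 57 bp from the TSS of RpL28, a ribosomal protein gene, but 291 and 324 bp from that of eIF1. At this pair of genes the 2 replicates with signal were therefore nearer to RpL28, while the pooled summit was nearer to eIF1.

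Of the elongation factor genes, eEF1gamma, a subunit of the complex that recharges eEF1alpha, had the strongest peak. Its summit lay 3 bp upstream of the TSS at 29220169 on 3R and ranked 1030. Relative values were 7.98 and 8.18 in replicates 2 and 3, at ranks 1019 and 1266, while replicate 1 had no candidate within 200 bp. The nearest candidate of replicate 1 was 1993 bp away, with a value of 1.94. Replicates 2 and 3 were thus alike and replicate 1 lacked the peak.

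eEF1alpha1, the GTPase that brings aminoacyl-tRNAs to the ribosome, had a summit in an intron, 86 bp upstream of its nearest TSS, at 11892036 on 2R with rank 3683. Relative values were 3.53, 3.45 and 4.03 in replicates 1, 2 and 3, a mean of 3.67 ± 0.317 (SD, n = 3), and all 3 were inside the lists. Its paralog eEF1alpha2, eEF1beta and eEF1delta were not bound, with no pooled candidate within 500 bp.

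eEF2, the translocation GTPase, had a summit 13 bp downstream of its TSS at 21682103 on 2L with rank 4718. Relative values were 3.56, 1.08 and 3.70 in replicates 1, 2 and 3, a mean of 2.78 ± 1.47 (SD, n = 3), so replicate 2 was far below the other two and outside its list. eEF5, the fly counterpart of eIF5A, which relieves stalled ribosomes, had a summit 19 bp upstream of a TSS at 24057834 on 2R with rank 5520. Its relative values were 3.39, 2.24 and 1.77, a mean of 2.47 ± 0.831 (SD, n = 3), and replicate 3 was outside its list.

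Both release factor genes had peaks that rested on 1 replicate list each. eRF1, which recognises stop codons, had a summit 144 bp upstream at 20348211 on 3L with rank 4831, and a candidate in replicate 2 alone, with a relative value of 2.43. eRF3, the GTPase partner of eRF1, had a summit 123 bp upstream at 12434329 on 2L with rank 4741, and values of 5.21, 1.34 and 1.48 in replicates 1, 2 and 3, so replicate 1 stood above the other two. The mean at eRF3 was 2.68 ± 2.20 (SD, n = 3), and 1.41 without replicate 1. Each shares its promoter region with another gene, eRF1 with Rbbp5 (a subunit of histone methyltransferase complexes) at 269 bp and eRF3 with the splicing factor gene SC35 at 291 bp. The reproducible summit of eRF3 also lay inside the gene SC35. At eRF3 the strongest candidates of replicates 2 and 3 lay 88 and 35 bp from the TSS of SC35 and 326 and 379 bp from that of eRF3, whereas the strongest of replicate 1 was nearer to eRF3.

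**Figure D2:**
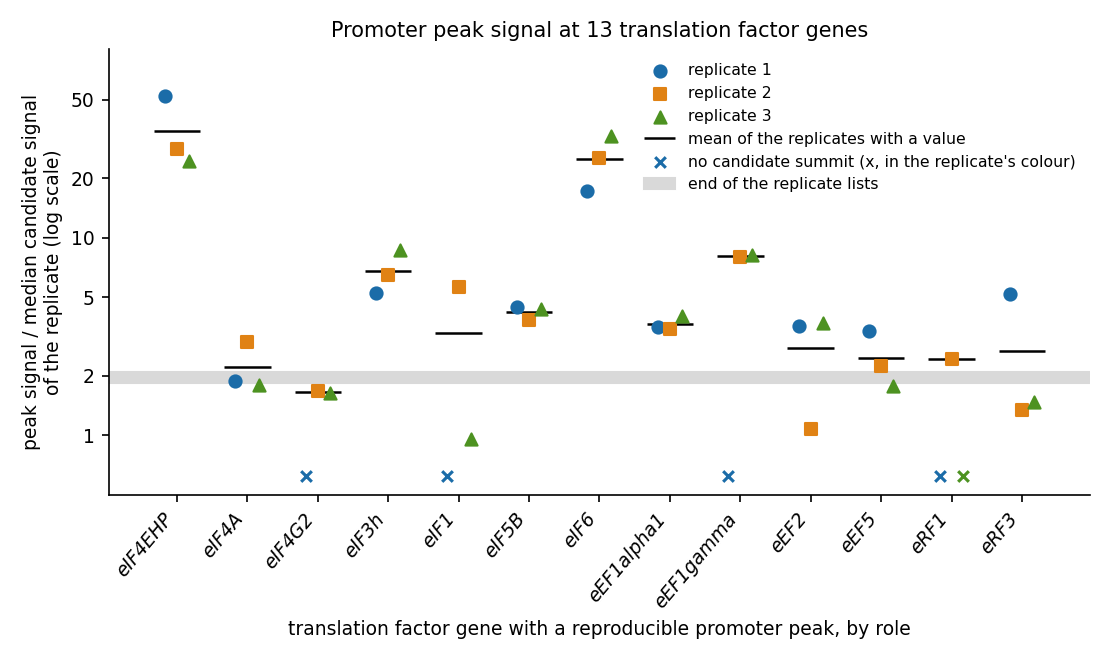
Relative peak signal (vertical axis, log scale) at the strongest promoter peak of each of the 13 bound translation factor genes, ordered by role, with 1 point per replicate. Black lines are means over the replicates with a value, crosses mark replicates without a candidate within 200 bp, and the grey band spans the values at which the replicate lists end. eIF4EHP and eIF6 stand at means of 34.8 and 25.1, and the rest lie below 10.

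As a group, the peaks at translation factor genes ranked low and were found in fewer replicates than peaks at other bound genes. The median rank of the strongest promoter peak was 4718 over the 13 translation factor genes, against 2654 over the 2145 bound protein-coding genes. Of the 13, 8 ranked below 3624, the middle of the reproducible list. The 3624 strongest reproducible peaks bound 9.26% of translation factor genes and 9.8% of all protein-coding genes. Among the first 1000 ranks were 2 of 13 (15.4%), against 24.4% of all bound genes and 5.26% of bound ribosomal protein genes. The median relative value was 3.29 at translation factor genes, against 4.64 at all bound genes and 4.28 at bound ribosomal protein genes. Peaks at 5 of 13 translation factor genes (38.5%) were in all 3 replicate lists, namely eIF3h, eIF4EHP, eIF5B, eIF6 and eEF1alpha1, against 1452 of 2145 bound genes (67.7%). Replicate 1 had no candidate at 4 of 13 (30.8%), which were eIF1, eIF4G2, eEF1gamma and eRF1, against 226 of 2145 bound genes (10.5%). The missing values of replicate 1 were thus a larger share here than over all bound genes. The same held at bound ribosomal protein genes (10 of 57, 17.5%) and the further translation genes (1 of 4, 25%), but not at synthetase genes (0 of 4). Without replicate 1 the median relative value was 3.29 at translation factor genes, against 4.07 at all bound genes.

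Promoter summits lie within 500 bp of a TSS by definition. Only their comparison with other bound genes, picked in the same way, is therefore informative. Of the 13 strongest promoter summits, 9 (69.2%) were upstream of the nearest TSS of the gene, against 1770 of 2145 bound genes (82.5%), and the median distance was 107 bp, against 175 bp. Within 150 bp upstream of the TSS were 8 of 13 (61.5%), against 31.4% of all bound genes. The other summits were those of eIF4EHP, farthest upstream at 234 bp, and of eEF2, eIF4A, eIF4G2 and eIF3h, at 13, 77, 205 and 300 bp downstream. The 8 include eRF1, with a candidate in replicate 2 alone, and eIF1 and eRF3. At these last genes the strongest candidates of replicates 2 and 3 lay farther upstream, at 291 and 324 bp (eIF1) and 326 and 379 bp (eRF3). Shared promoters were about as frequent as elsewhere, with 6 of 13 translation factor genes (46.2%) and 916 of 2145 bound genes (42.7%) having another TSS within 500 bp of the summit.

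**Figure D3:**
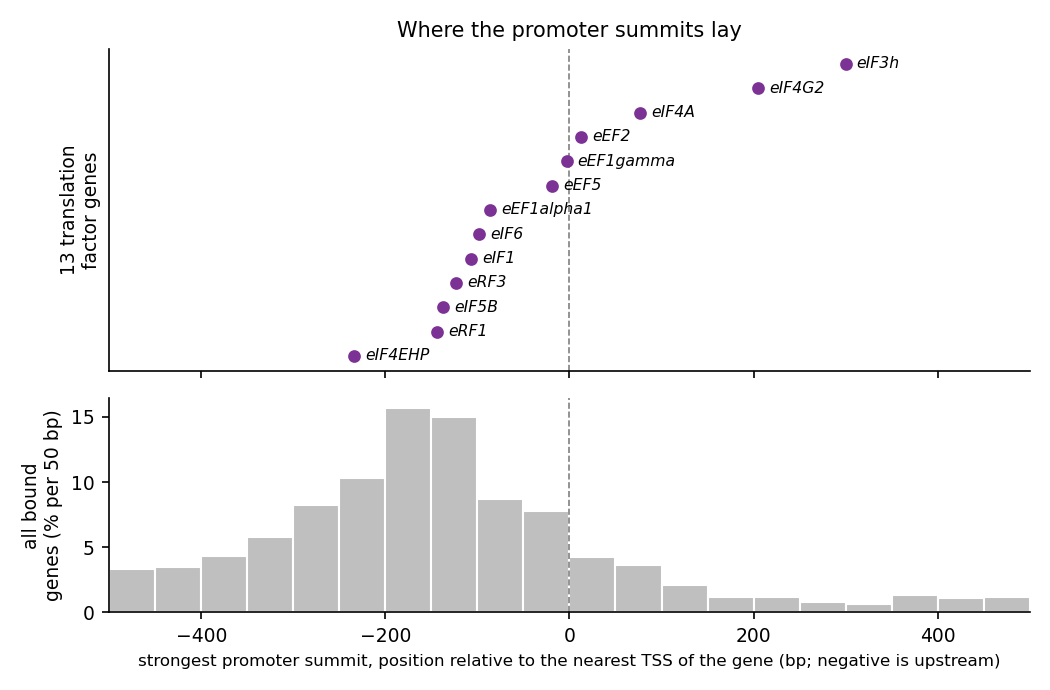
Position of the strongest promoter summit relative to the nearest TSS of the gene (horizontal axis, bp, negative upstream) for the 13 bound translation factor genes (top, 1 point each) and for all 2145 bound genes (bottom, percent per 50 bp). Of the 13 translation factor summits, 8 fall within 150 bp upstream of the TSS.

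Inside gene bodies, 8 of 54 translation factor genes (14.8%) held a reproducible summit, against 14% of all protein-coding genes. Without 1 replicate, and with summits required in both other lists, 4 to 5 did (7.41% to 9.26%), against 11.2% to 11.9% of all protein-coding genes. Over 500 bp from every TSS, however, only eIF5B and eIF4EHP did, 2 of 54 (3.7%) against 10.4% of all protein-coding genes. These are the only 2 translation factor genes longer than 30 kb, at 32320 and 45884 bp. Among protein-coding genes over 30 kb, 449 of 663 (67.7%) held a summit in the gene body. Median gene length was 1967.5 bp for translation factor genes and 2166 bp for all protein-coding genes, and the part of gene length in these shares was not tested.

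The intronic peaks of eIF5B numbered 6, at 9892 to 27721 bp from its nearest TSS. The strongest, at 3442261 on 3L with rank 2021, had relative values of 6.62, 4.26 and 6.59 in replicates 1, 2 and 3, a mean of 5.82 ± 1.35 (SD, n = 3), which was above the promoter peak of the gene in each replicate. The next, at 3444436 with rank 2734, had 4.27, 4.24 and 5.19, a mean of 4.56 ± 0.543 (SD, n = 3). The other 4, at ranks 4655 to 5314, had means of 2.48 to 2.79, and replicates 2 and 3 were both lower than replicate 1 at all 4. Those at 3443242, 3450711 and 3438677 were in only 2 replicate lists each. With 7 summits in the gene body, eIF5B carried 2.17 per 10 kb, a density above that of 96.4% of genes over 30 kb, whose median was 0.334 per 10 kb. For 3 of the 6 intronic peaks, including the strongest, the nearest TSS was not that of eIF5B but that of sty, the sprouty gene of receptor tyrosine kinase signalling.

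eIF4EHP had 3 intronic peaks, at 2544, 9795 and 34979 bp from its TSS. The summit at 24099165 on 3R, with rank 3786, had relative values of 2.93, 3.64 and 4.13 in replicates 1, 2 and 3, a mean of 3.57 ± 0.602 (SD, n = 3). The summits at 24106416 and 24073981, with ranks 4765 and 5482, had means of 2.95 ± 0.203 and 2.31 ± 0.465 (SD, n = 3 each). All 3 were far below the promoter peak of the same gene, where the mean was 34.8, and their density of 0.654 per 10 kb was above that of 65.6% of genes over 30 kb. The nearest TSS belonged to Syx1A, a syntaxin of synaptic vesicle release, for the 2 nearer peaks and to SMC1, a cohesin subunit, for the farthest.

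**Figure D4:**
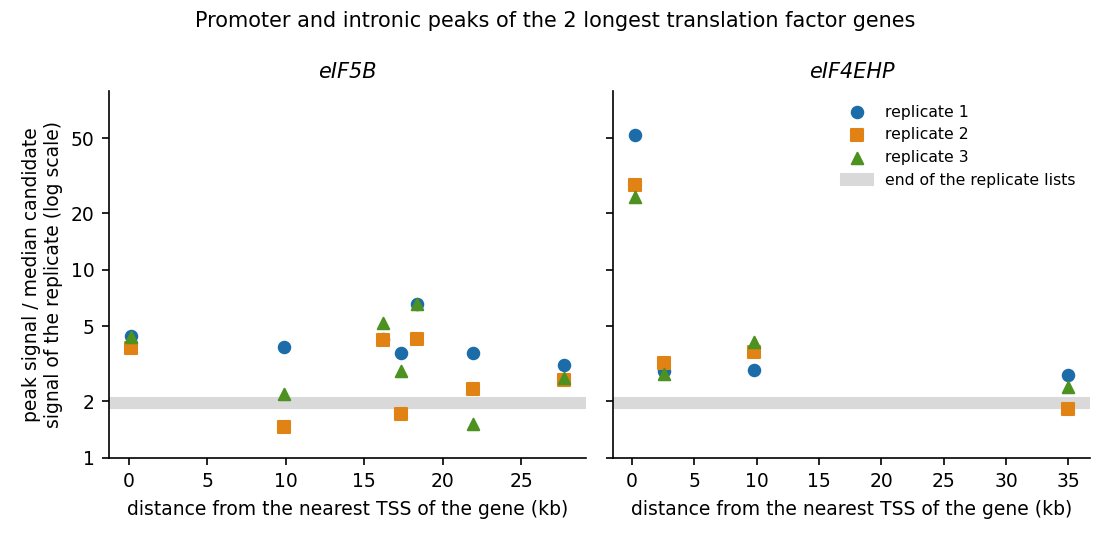
Relative peak signal (vertical axis, log scale) against distance from the nearest TSS of the gene (horizontal axis, kb) for every reproducible peak of eIF5B (left) and eIF4EHP (right), with 1 point per replicate and a grey band at the end of the replicate lists. At eIF5B an intronic peak with a mean of 5.82 exceeds the promoter peak with 4.22, and at eIF4EHP the promoter peak exceeds all 3 intronic peaks.

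Of the 41 translation factor genes without a reproducible promoter peak, 36 were also in no replicate list and 23 had no candidate of any strength in any replicate within 500 bp of a TSS. Bound or not, 17 of 54 translation factor genes were in at least 1 replicate list, against 3256 of 13945 protein-coding genes. The nearest reproducible summit was 556 bp (eEFSec) to 1845015 bp (eIF4B) away, with a median of 13446 bp. The counts of 36 and 23 and these distances were not set beside those of all unbound genes. eIF2D, an initiator tRNA factor that acts outside eIF2, was in the lists of 2 replicates, with 2.60 and 2.95 in replicates 2 and 3 at ranks 4865 and 4953, but had no candidate in replicate 1 and none in the pooled list within 6078 bp. Another 4 genes were in 1 list each, namely eIF4G1 (the eIF4G scaffold) in replicate 1, eIF2Bgamma in replicate 2, and eIF4H1 and eIF2beta in replicate 3, at ranks 6977, 5760, 4592 and 7207. Over all protein-coding genes, 249 of 2241 in at least 2 replicate lists (11.1%) likewise had no pooled candidate within 500 bp, so eIF2D was not alone in this. The gene of CG10669 itself was not bound and had no pooled candidate at its TSSs.

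The DNA under the promoter peaks of translation factor genes had a higher median G+C content than that under promoter peaks in general, with a wide spread between genes. In 200 bp windows at the summits the median G+C content was 43% (range 22.5% to 52%) over the 13 translation factor peaks, against 35% over 1963 reproducible promoter peaks and 39.5% over all protein-coding promoters. The promoter windows were also 200 bp long but started 150 bp upstream of the annotation's canonical TSS of each gene. Their position therefore differs from that of the summit windows. The genes fell into an A+T-rich group, with eIF4EHP at 22.5%, eRF3 at 23.5%, eIF1 at 27.5% and eRF1 at 29%, and 9 others from 39.5% (eIF5B) to 52% (eIF4G2). The 4 A+T-rich windows are among those printed near the beginning. Peaks in at most 1 replicate list stood at both ends, with eRF3, eIF1 and eRF1 among the A+T-rich and eIF4A and eIF4G2 at 51.5% and 52%. The 9 gene-body peaks away from promoters had a median of 33.5%, close to the 34% of all reproducible peaks.

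Short sequence motifs were searched on both strands of the same 200 bp windows. Those of all protein-coding promoters were again placed by the TSS and not by a summit, so the 2 kinds of window are not alike. ATCGAT, the DRE core, was present at eIF6, eEF1gamma and eEF2, 3 of 13 (23.1%), against 8.35% of reproducible promoter peaks and 19.1% of all protein-coding promoters. CACGTG, an E-box, was found at eEF2 only (7.69%), against 2.19% of promoter peaks and 3.03% of promoters, and GGTCACAC, the letters bound by the factor M1BP, at eEF1alpha1 only, against 2.14% and 6.81%. GAGAG was present at 2 of 13 (15.4%), against 26.7% of promoter peaks and 22.9% of promoters, TATAAA at 5 (38.5%), against 34.7% and 32.2%, and a run of 6 A or T, which can overlap TATAAA, at 7 (53.8%), against 47.1% and 36.1%. With 13 windows, 1 gene moves a share by 7.69 percentage points. The 8-letter word with the greatest excess over flanking windows in the whole reproducible list, CACTGAGA, was in 4.79% of summit windows and 0.414% of windows centred 500 bp away. Its core CACTGA, on either strand, was in 16.5% of all summit windows, 11.4% of promoter peaks, 8.04% of flanks and 11% of promoters, and in 0 of 13 translation factor windows. A rough upper limit for that share, taken as 3 counts over 13 windows, is 23.1%, and so few windows make it approximate.

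The letters CTTT near a TSS were more frequent at translation factor genes than over the genome, and far less frequent than at ribosomal protein genes. CTTT on the sense strand, starting within 10 bp of an annotated TSS, was present at 16 of 54 translation factor genes (29.6%), 76 of 93 ribosomal protein genes (81.7%) and 2074 of 13945 protein-coding genes (14.9%). Of translation factor genes with CTTT, 5 of 16 (31.2%) were bound, against 8 of 38 without it (21.1%). The shares were 67.1% and 35.3% for ribosomal protein genes, and 23.8% and 13.9% for all protein-coding genes. The 5 bound translation factor genes with CTTT were eEF1alpha1, eEF2, eEF5, eIF4A and eRF3. At eEF1alpha1, eEF2 and eEF5 it was at the TSS nearest the peak, while at eRF3 it was at another TSS of the gene, 2238 bp away, and at eIF4A at both other TSSs, 231 and 599 bp away. A majority of the 16, 11 genes that include 7 of the eIF3 subunits, had CTTT and no reproducible peak. The starts of eIF3i, eIF3e, eIF4E1 and eIF3f1 printed above are examples. Whether these letters act as a TCT initiator at any of the genes was not tested.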

How the data were processed

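ChIP-seq peak lists of 3 biological replicates of 1 group were used. Per the labels, chromatin was sonicated to a size range of 200 to 800 bp and coordinates are dm6. Per the file headers, the authors called 30000 candidates in each replicate and in the pooled data, with a control shared by the replicates, and made the reproducible list with the irreproducible discovery rate procedure. The sources used here do not give the aligner, caller or threshold. The deposited signal is the caller's value, used within a list only, as a rank or divided by the median candidate signal. The deposited −log10 q-value reached at most 4.24 and was not used. No read totals are given, so depth is unknown and n = 3 sets the precision. All 7248 reproducible peaks were the strongest pooled candidates, and 66.7% lay in all 3 replicate lists. A summit counted as found in a replicate within 200 bp. Genes and TSSs came from Ensembl release 115. Flanking windows were centred 500 bp away on a randomly drawn side. The genes named are all translation factor genes with a summit and the genes sharing their peaks. Intronic peaks are also given with the gene of the nearest TSS, and motifs with the factor or element known for them. No significance test was run, since there is 1 group. The members and lists were chosen with earlier results of these data known, and the search for 8-letter words and for CTTT was added after seeing the data. Window counting was tested on simulated data, and 37 alternatives were tried. Python 3.11.15, numpy 2.4.6, pandas 2.3.3 and matplotlib 3.10.9 were used.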

Additional observations from a re-analysis of the deposited data

How the results depend on the processing

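The count of 13 bound translation factor genes (24.1%, all genes 15.4%) was 13 with a window of 250 bp (24.1%, all genes 11.3%), 15 with 1000 bp (27.8%, 19.1%), 11 with the canonical TSS (20.4%, 12.6%), 12 with the nearest gene (22.2%, 12.4%) and 15 with all pooled candidates (27.8%, 30.5%), where the share was below that of all genes. It was 6 (11.1%) when any 1 replicate was left out and the summit had to lie in both other replicate lists (all genes 11.2% to 12%), 5 (9.26%) among the 3624 strongest reproducible peaks (9.8%) and 5 (9.26%) with peaks in all 3 replicate lists (10.4%), all below all genes. The 8 genes with a gene-body summit (14.8%, all genes 14%) became 4 to 5 without a replicate (7.41% to 9.26%, all genes 11.2% to 11.9%), 2 over 500 bp from every TSS (3.7%, 10.4%), 2 among the 3624 strongest peaks (3.7%, 9.32%) and 4 in all 3 lists (7.41%, 10.6%). The mean share of 20.4% became 12.3% with replicate lists of 3624 peaks (all genes 9.96%), 38.3% with all candidates (35.5%), 17.9% with 250 bp (12.4%) and 24.7% with 1000 bp (20.6%), and stayed between 19.4% and 21.3% without a replicate. The 5 of 13 genes with peaks in all 3 lists (38.5%, all bound genes 67.7%) became 9 (69.2%, 86.6%) when all candidates counted. The median relative value of 3.29 (all bound genes 4.64) was 3.29, 3.71 and 3.49 without replicates 1, 2 and 3 (all bound genes 4.07, 5.08 and 4.67). It was 2.78 with matching within 100 bp (all bound genes 4.64) and 0.973 when scaled to the strongest peaks (1.25). At eIF1 the mean was 0.961 without replicate 2 or with matching within 100 bp, and 5.61 without replicate 3. At eRF3 the mean was 1.41 without replicate 1, against 2.68 with it. The causes were not tested. No paired analysis was possible because there is 1 group. Unknown depth, 1 shared control and 3 replicates limit every value, and a gene without a peak was not detected at this depth, which does not show that the protein was absent there.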
